A study of Homo sapiens with 12 samples.

Results

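The 10 genes described here are repressors and outputs of the circadian clock: PER1, PER2, PER3, CRY1, CRY2, NR1D1, NR1D2, DBP, BHLHE40 and BHLHE41. They were picked by name for their known roles, with earlier results of these data known, and matched to the deposited counts by Ensembl gene ID. All 10 were found among 57820 gene IDs, and all 10 passed the filter on low counts that left 16999 genes for testing. AsPC-1 is a long-used human pancreatic cancer line, and poly(A)-selected RNA was sequenced from 12 libraries in 4 groups of 3 replicates (A, B and C). Cells received either a scrambled control siRNA (siControl) or one that targets ARNT (siARNT), were divided a day later, and stayed at 21% O2 (normoxia) or went to 1% O2 for 24 h (hypoxia), with harvest 48 h after transfection. All groups were thus transfected cells of 1 line, and each was sampled at a single time, so levels were measured and the phase of a rhythm was not.

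In the clock, the bHLH-PAS proteins CLOCK (or NPAS2) and BMAL1 bind E-box sequences and drive transcription of the PER and CRY genes, of NR1D1 and NR1D2, of DBP and of BHLHE40 and BHLHE41. PER and CRY proteins then hold CLOCK and BMAL1 back, the nuclear receptors NR1D1 and NR1D2 (REV-ERB alpha and beta) repress BMAL1, and BHLHE40 and BHLHE41 (DEC1 and DEC2) repress at E-boxes. ARNT belongs to the same bHLH-PAS family, pairs with the HIF alpha subunits that accumulate at low oxygen, and pairs with the aryl hydrocarbon receptor as well. BHLHE40 is known as a HIF target in several cell types.

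The gene counts of a library summed to between 38.53 and 84.34 M, and levels are given in CPM, a gene's counts scaled to a common library total, after TMM scaling. ARNT itself lay between 60.7 and 72.2 CPM in the 6 siControl libraries and between 12.8 and 16 CPM in the 6 siARNT libraries, a log2 fold change of -2.22 in normoxia (edgeR adjusted p = 8.99e-09) and -2.17 in hypoxia (edgeR adjusted p = 2.65e-09). All 8 ductal epithelial markers examined were above 1 CPM on average, KRT7 only just (median 1.41 CPM). Of 19 markers of fibroblasts, leukocytes, endothelial, acinar and endocrine cells found in the files, 2 were above 1 CPM, LUM (median 414 CPM) and LYZ (median 186 CPM), while the fibroblast markers COL1A1, COL1A2 and COL3A1 and the leukocyte marker PTPRC stayed under 0.3 CPM in every library. The summed level of these markers ran from 753 to 804 CPM in hypoxia siControl and from 498 to 686 CPM in the other groups, and its part in the results was not tested. Normoxia siARNT B and hypoxia siARNT C stood apart from the other libraries: log2 CPM rose with the GC content of genes by 0.43 and 0.24 per 10 percentage points, against -0.21 to 0.12 in the other 10. Counts of clock genes called, and some of the values that moved, are given with and without them.

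The promoters of the 4 genes that changed with hypoxia in siControl cells are shown because both factors at issue read short core sequences: HIF with ARNT binds ACGTG or GCGTG, and CLOCK with BMAL1 binds the E-box CACGTG, which contains ACGTG on both strands. Each window holds 300 bases around the RefSeq start of the gene (GRCh38.p14), written 5′ to 3′ on the gene's strand, with ACGTG on either strand in capitals. The windows are BHLHE40, chr3:4979187-4979486 on the plus strand, PER2, chr2:238288561-238288860 on the minus strand, CRY1, chr12:107093500-107093799 on the minus strand, and DBP, chr19:48637330-48637629 on the minus strand.
BHLHE40: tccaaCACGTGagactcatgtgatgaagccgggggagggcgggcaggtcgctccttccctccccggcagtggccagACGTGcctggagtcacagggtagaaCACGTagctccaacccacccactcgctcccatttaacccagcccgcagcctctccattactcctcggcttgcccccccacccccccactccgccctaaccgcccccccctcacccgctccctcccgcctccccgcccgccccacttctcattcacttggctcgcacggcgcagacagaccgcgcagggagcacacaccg
PER2: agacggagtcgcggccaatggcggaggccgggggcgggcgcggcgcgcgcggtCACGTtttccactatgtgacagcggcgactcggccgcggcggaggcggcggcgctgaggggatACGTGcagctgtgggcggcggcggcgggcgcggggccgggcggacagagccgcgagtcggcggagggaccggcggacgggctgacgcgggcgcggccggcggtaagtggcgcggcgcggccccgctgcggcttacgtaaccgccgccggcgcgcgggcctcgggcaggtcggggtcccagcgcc
CRY1: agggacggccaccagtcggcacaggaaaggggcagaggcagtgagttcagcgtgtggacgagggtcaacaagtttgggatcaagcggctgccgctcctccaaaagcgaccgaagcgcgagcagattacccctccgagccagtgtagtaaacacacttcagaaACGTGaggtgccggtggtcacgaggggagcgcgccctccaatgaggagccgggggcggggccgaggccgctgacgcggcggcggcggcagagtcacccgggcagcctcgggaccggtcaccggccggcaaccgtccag
DBP: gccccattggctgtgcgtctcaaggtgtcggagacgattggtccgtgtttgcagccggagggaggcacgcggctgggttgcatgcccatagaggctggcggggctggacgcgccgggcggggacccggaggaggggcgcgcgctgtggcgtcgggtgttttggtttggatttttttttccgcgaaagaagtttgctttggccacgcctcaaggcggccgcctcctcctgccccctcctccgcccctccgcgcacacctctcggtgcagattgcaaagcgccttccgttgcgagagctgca
Counted from 1 at the 5′ end of the window, BHLHE40 holds an E-box CACGTG at base 6 and further ACGTG cores at bases 77 and 102. PER2 holds ACGTG at bases 54 and 117, CRY1 holds it at base 163, and DBP holds none but has GCGTG on the opposite strand, written CACGC, at bases 66 and 202. Among the 10 genes, 8 had ACGTG in at least 1 window, 4 had CACGTG and 7 had GCGTG, all read on both strands. The shares among all 35116 RefSeq promoter windows of this length were 21.4% for ACGTG, 7.26% for CACGTG and 36.5% for GCGTG. These shares are per window, while PER3, CRY2 and NR1D2 had 2 windows each and were counted if either held the motif. The counts of genes are thus not in the same unit as the shares. A match is a description of the letters and no evidence of binding in these cells.

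At baseline, in normoxia siControl, the genes spanned a wide range per length of their principal transcript. BHLHE40 stood highest at 16 ± 0.66 CPM per kb (SD, n = 3), followed by CRY1 at 10.2 ± 0.0816, NR1D2 at 7.42 ± 0.221, PER3 at 4.41 ± 0.0735 and CRY2 at 3.68 ± 0.372 CPM per kb. NR1D1 at 1.98 ± 0.282 and PER2 at 1.93 ± 0.0717 CPM per kb overlapped. PER1 (0.514 ± 0.0958 CPM per kb) and DBP (0.379 ± 0.0511 CPM per kb) overlapped too, and BHLHE41 was lowest at 0.163 ± 0.0312 CPM per kb. All 12 libraries held counts of every gene, from 21 counts of BHLHE41 in its lowest library to 7345 of BHLHE40 in its highest.

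**Figure D1:**
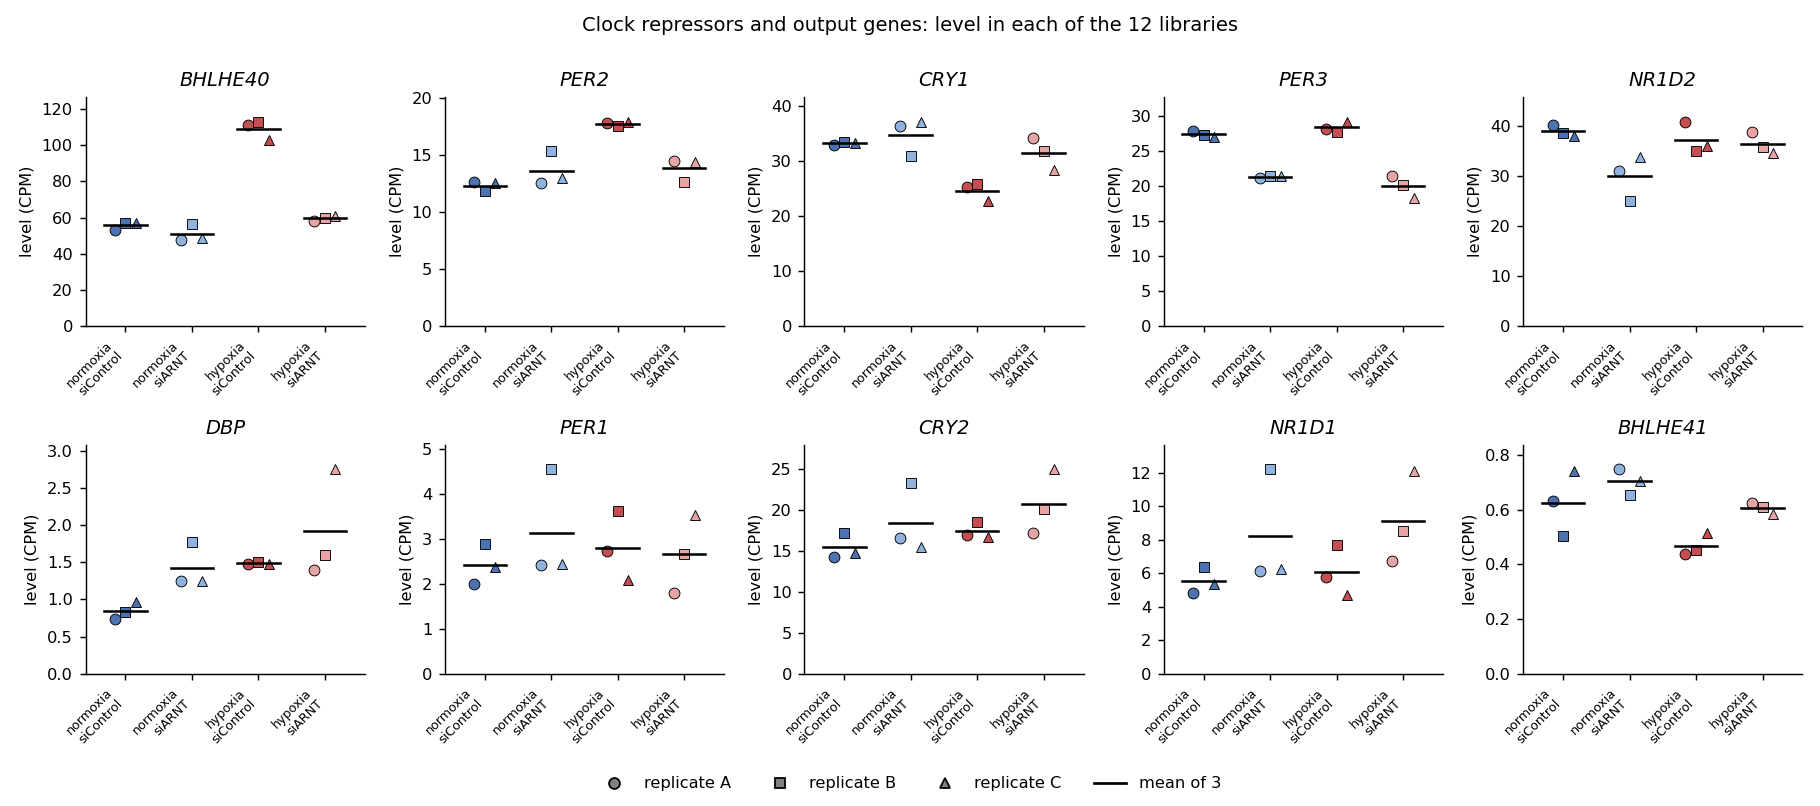
Level of the 10 clock genes in each of the 12 libraries, in CPM on linear axes from 0; points are replicates A, B and C and the line is the mean of 3. BHLHE40 lies between 103 and 113 CPM in hypoxia siControl and between 47.6 and 61.1 CPM in the other 3 groups, while PER3 is lower in both siARNT groups than in both siControl groups.

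The first comparison asked how 24 h at 1% O2 changed the clock genes in siControl cells. BHLHE40, PER2 and DBP rose, CRY1 fell, and the other 6 genes did not pass the test. That is 3 of 10 called up, where 10.4% of all tested genes were, and 1 of 10 called down, where 14.9% were. The groups did not overlap for 4 of the 10, against 46.8% of all tested genes. The same 3 and 1 calls were made with normoxia siARNT B and hypoxia siARNT C left out. Since RNA was measured in bulk, fewer cells expressing a gene and less RNA per cell cannot be told apart. Replicates came from wells of 1 cell line that were divided after transfection. Whether a letter marks the same well at both oxygen levels is not stated, and p-values measure only the spread between these samples.

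BHLHE40 (ENSG00000134107.4, chr3:4979116-4985323) encodes the bHLH repressor DEC1. Its level was 53.1, 57.2 and 56.8 CPM in normoxia siControl A, B and C and 111, 113 and 103 CPM in hypoxia siControl. Every hypoxic library exceeded every normoxic one, by a log2 fold change of 0.97 ± 0.0721 (SE, n = 3 each, edgeR adjusted p = 3.92e-06), or 1.96-fold. For scale, the HIF target CA9 changed by 3.27, EGLN3 by 3.29 and NDRG1 by 3.09 on the same log2 scale.

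PER2 (ENSG00000132326.7, chr2:238244038-238290102), a core repressor that pairs with the CRY proteins, stood at 12.6, 11.8 and 12.5 CPM in normoxia siControl and at 17.8, 17.5 and 17.9 CPM in hypoxia siControl. The hypoxic libraries were all higher and lay close together, with a log2 fold change of 0.53 ± 0.093 (SE, n = 3 each, edgeR adjusted p = 0.00149). Its paralogs PER1 and PER3 were not called: the log2 fold change of PER1 was 0.23 ± 0.312 with a 95% interval of -0.46 to 0.91, and that of PER3 was 0.05 ± 0.068 with an interval of -0.09 to 0.2. The difference between the paralogs was not tested.

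CRY1 (ENSG00000008405.7, chr12:106991364-107093829), the partner of the PER proteins and the stronger repressor of the CRY pair, went the other way. It measured 33, 33.5 and 33.3 CPM in normoxia siControl and 25.3, 25.8 and 22.7 CPM in hypoxia siControl. All hypoxic libraries were lower, and the log2 fold change was -0.44 ± 0.0894 (SE, n = 3 each, edgeR adjusted p = 0.00374). For CRY2 the value was 0.17 ± 0.164, with an interval of -0.19 to 0.53.

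DBP (ENSG00000105516.6, chr19:48630030-48637438), a PAR bZIP activator that binds D-boxes and serves as a direct readout of CLOCK and BMAL1, was expressed at a low level. It stood at 0.739, 0.831 and 0.965 CPM in normoxia siControl and at 1.48, 1.5 and 1.48 CPM in hypoxia siControl, from 38 to 98 counts a library. The hypoxic libraries were all higher, with a log2 fold change of 0.82 ± 0.253 (SE, n = 3 each, edgeR adjusted p = 0.0327). This call rested on each library: leaving out any 1 of the 6 siControl libraries gave log2 fold changes of 0.73 to 0.94 and edgeR adjusted p of 0.0538 to 0.125. BHLHE41, the paralog of BHLHE40, was 0.631, 0.503 and 0.743 CPM in normoxia siControl and 0.437, 0.451 and 0.515 CPM in hypoxia siControl, a log2 difference of -0.43 ± 0.181 that was not called (edgeR adjusted p = 0.113). NR1D1 (0.14 ± 0.299) and NR1D2 (-0.06 ± 0.102) were not called either.

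**Figure D2:**
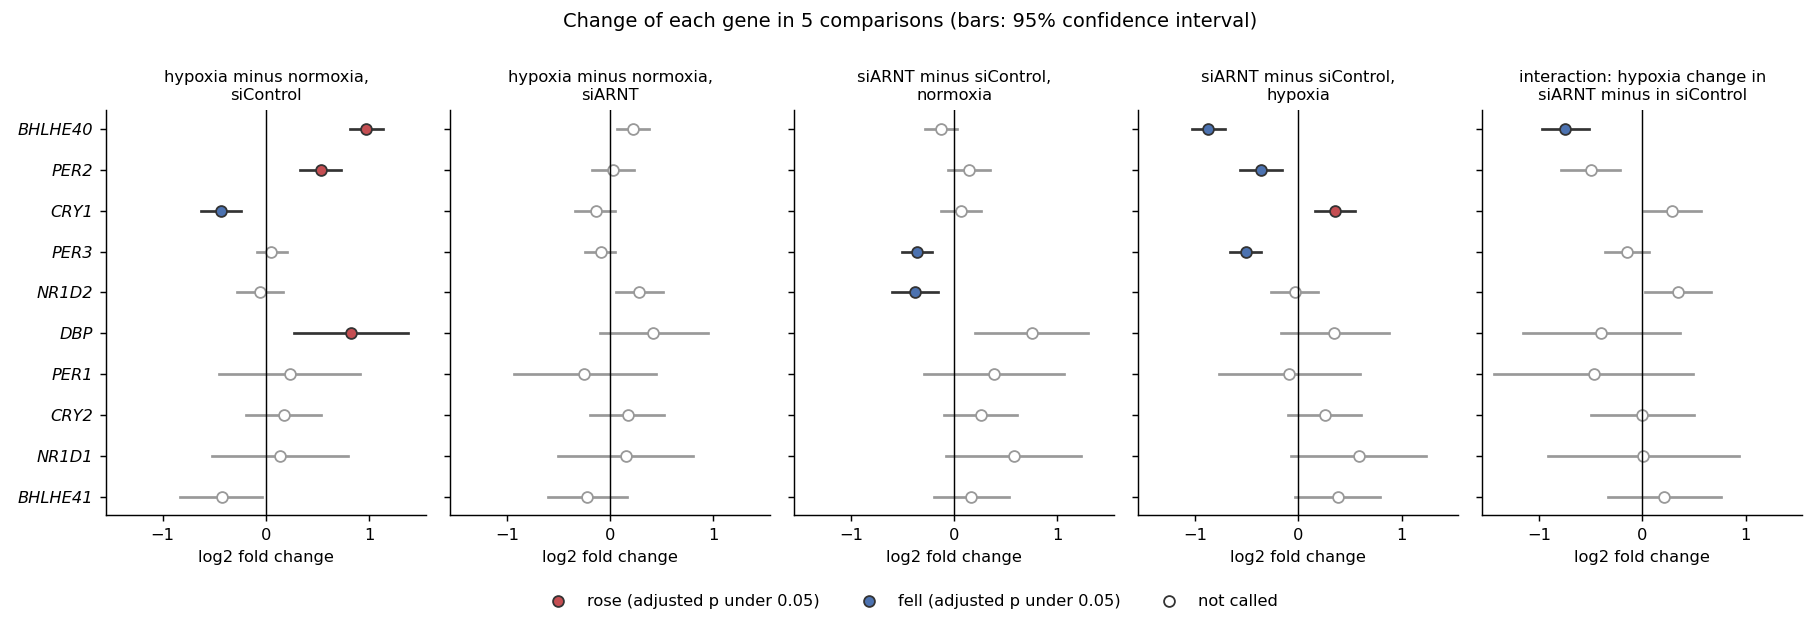
Log2 fold change of each clock gene in the 5 comparisons; points are estimates over 3 libraries a group, bars are 95% confidence intervals, and filled points passed an adjusted p of 0.05. BHLHE40, PER2 and CRY1 have filled points of opposite sign for hypoxia in siControl cells (0.97, 0.53 and -0.44) and for siARNT in hypoxia (-0.87, -0.36 and 0.36), which share the hypoxia siControl libraries.

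The same oxygen change was then compared in siARNT cells. None of the 10 genes was called by edgeR, where 4.09% of all tested genes were, and at an unadjusted p under 0.05 there were 2 (NR1D2 and BHLHE40), where 21.2% of all tested genes were. BHLHE40 measured 47.6, 56.6 and 48.9 CPM in normoxia siARNT and 57.9, 59.9 and 61.1 CPM in hypoxia siARNT. The hypoxic libraries were all higher, but the log2 fold change of 0.22 ± 0.0719 (SE, n = 3 each) had an edgeR adjusted p of 0.1. Without normoxia siARNT B and hypoxia siARNT C it was 0.29 with an edgeR adjusted p of 0.0362, and over all 23 alternatives run the adjusted p ranged from 0.00189 to 0.281. PER2 changed by 0.03 ± 0.093 (interval -0.18 to 0.23) and CRY1 by -0.14 ± 0.089 (interval -0.34 to 0.05). DBP changed by 0.42 ± 0.24 (edgeR adjusted p = 0.343), and by 0.27 without normoxia siARNT B and hypoxia siARNT C (edgeR adjusted p = 0.431). NR1D2 stood at 31.1, 25.1 and 33.8 CPM in normoxia siARNT and at 38.8, 35.9 and 34.7 CPM in hypoxia siARNT, all higher, with a log2 difference of 0.28 ± 0.102 and an edgeR adjusted p of 0.139. Without the 2 libraries of steep GC slope the NR1D2 value was 0.21 (edgeR adjusted p = 0.186). DESeq2 called none of the 10 here. A correction of each library for GC content called 4 up (BHLHE40, CRY2, NR1D2 and DBP), where 7.25% of all genes tested in that fit were. With GC correction and a replicate block by letter, 5 were called up, these and NR1D1 (0.35, edgeR adjusted p = 0.0325). In that fit 2 were called down, CRY1 (-0.19, edgeR adjusted p = 0.0279) and PER3 (-0.16, edgeR adjusted p = 0.049). Of all 16535 genes tested there, 1298 were called up and 2316 down.

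Whether the hypoxia change itself differed between siARNT and siControl cells was tested with an interaction term. BHLHE40 was the 1 gene of the 10 called, where 4.69% of all tested genes were called and 2.19% were called down: its hypoxia change was smaller in siARNT cells by 0.75 on the log2 scale (estimate -0.75 ± 0.101 SE, edgeR adjusted p = 0.00191), and it was called in all 22 alternatives run, with estimates from -0.79 to -0.65. PER2 had an estimate of -0.5 ± 0.131 and narrowly missed the threshold (edgeR adjusted p = 0.0521). It was called in 7 of 22 alternatives, including the fit without normoxia siARNT B and hypoxia siARNT C (-0.42, edgeR adjusted p = 0.0476), and the adjusted p over all of them ranged from 0.0054 to 0.145. For CRY1 the estimate was 0.29 ± 0.126 (edgeR adjusted p = 0.214), and for DBP -0.4 ± 0.348 with an interval of -1.16 to 0.36. Without the 2 libraries these were 0.3 (edgeR adjusted p = 0.0737) and -0.55 (edgeR adjusted p = 0.163). Among the 4 genes that changed with hypoxia in siControl cells, a difference between the siRNAs was shown for BHLHE40 only at this threshold.

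Within hypoxia, siARNT and siControl cells were compared directly. BHLHE40, PER3 and PER2 were lower in siARNT cells and CRY1 was higher: 3 of 10 genes called down, where 14.7% of all tested genes were, and 1 of 10 called up, where 14.4% were. These calls were also made without normoxia siARNT B and hypoxia siARNT C. The groups did not overlap for 5 of the 10, against 40.3% of all tested genes. This comparison uses the same hypoxia siControl libraries as the hypoxia comparison above, so opposite signs in both are not independent.

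In hypoxia siARNT A, B and C, BHLHE40 stood at 57.9, 59.9 and 61.1 CPM, far under the 103 to 113 CPM of hypoxia siControl, with a log2 fold change of -0.87 ± 0.0721 (SE, n = 3 each, edgeR adjusted p = 4.25e-06). PER2 measured 14.5, 12.6 and 14.4 CPM in hypoxia siARNT, all under hypoxia siControl, with a log2 fold change of -0.36 ± 0.093 (edgeR adjusted p = 0.0126). The PER2 call was lost without hypoxia siARNT B (-0.29, edgeR adjusted p = 0.0655), and its adjusted p lay between 0.000871 and 0.0655 over the 22 alternatives. CRY1 was 34.3, 31.8 and 28.5 CPM in hypoxia siARNT, all above hypoxia siControl, with a log2 fold change of 0.36 ± 0.0896 (edgeR adjusted p = 0.0102). The means of CRY1 in hypoxia siARNT (31.5 ± 2.91 CPM, SD, n = 3) and in normoxia siControl (33.3 ± 0.267 CPM) lay near each other.

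PER3 (ENSG00000049246.10, chr1:7784320-7845177), the PER family member thought to be least needed for the core loop, was lower in siARNT cells at both oxygen levels. It measured 27.9, 27.3 and 27 CPM in normoxia siControl and 28.2, 27.8 and 29.2 CPM in hypoxia siControl. In siARNT cells it stood at 21.2, 21.4 and 21.4 CPM in normoxia and at 21.5, 20.1 and 18.3 CPM in hypoxia. All 6 siARNT libraries were under all 6 siControl libraries. The log2 fold change with siARNT was -0.36 ± 0.0681 in normoxia (edgeR adjusted p = 0.00413) and -0.51 ± 0.0686 in hypoxia (edgeR adjusted p = 0.000182), and both calls held in all 22 alternatives. Correction for GC content brought the normoxia value to -0.2 (edgeR adjusted p = 0.0124; range over the alternatives 0.000226 to 0.0301), while leaving out normoxia siARNT B and hypoxia siARNT C gave -0.37. The interaction estimate of PER3, -0.15 ± 0.0965, was not called (edgeR adjusted p = 0.395). With GC correction it was -0.3 and called (edgeR adjusted p = 0.02), as it was with GC correction and a replicate block (edgeR adjusted p = 0.0153), and the adjusted p over all 22 alternatives reached 0.75.

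In normoxia, PER3 and NR1D2 were lower in siARNT than in siControl cells, so 2 of 10 genes were called down, where 10.8% of all tested genes were, and none was called up, where 9.42% were. Without normoxia siARNT B and hypoxia siARNT C, 3 were called down (PER3, NR1D2 and BHLHE40), where 10.2% of all genes tested in that fit were, and DBP was called up, where 7.85% were. With GC correction CRY1 was called up (0.27, edgeR adjusted p = 0.00821), where 21.3% of all genes tested in that fit were; without it the value was 0.07, and over all alternatives its adjusted p ran from 0.00177 to 0.914. The groups did not overlap for 3 of the 10, against 46.5% of all tested genes. NR1D2 (ENSG00000174738.8, chr3:23945260-23980618), which encodes REV-ERB beta, went from 40.3, 38.6 and 38.1 CPM in normoxia siControl to 31.1, 25.1 and 33.8 CPM in normoxia siARNT, a log2 fold change of -0.38 ± 0.102 (edgeR adjusted p = 0.024). The lowest value was that of normoxia siARNT B, and without it and hypoxia siARNT C the log2 fold change was -0.28 (edgeR adjusted p = 0.0278). Correction for GC content gave -0.18 (edgeR adjusted p = 0.0329). Leaving out normoxia siControl A, B or C in turn ended the call (edgeR adjusted p = 0.0868, 0.0563 and 0.0659), as did a fit on the 6 normoxia libraries alone (0.0605), while over all alternatives the lowest adjusted p was 0.0112. In hypoxia the siARNT difference of NR1D2 was -0.03 ± 0.102. DBP was 1.25, 1.77 and 1.24 CPM in normoxia siARNT, all above normoxia siControl, with a log2 difference of 0.75 ± 0.251 that missed the threshold (edgeR adjusted p = 0.0542), and it was called in 8 of 22 alternatives (adjusted p from 0.0141 to 0.194). Without normoxia siARNT B and hypoxia siARNT C the DBP difference was 0.56 (edgeR adjusted p = 0.0382). In hypoxia the siARNT difference of DBP was 0.35 ± 0.242 (edgeR adjusted p = 0.308), and 0.01 without those libraries. For BHLHE40 in normoxia the siARNT difference was -0.13 ± 0.0717 (edgeR adjusted p = 0.212), and -0.22 without them (edgeR adjusted p = 0.0279).

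PER1, NR1D1, CRY2 and BHLHE41 were called in none of the 5 comparisons, and the GC-rich genes among them were high in the libraries of steep GC slope. PER1 (GC content 62.7%), NR1D1 (59.5%), DBP (57.8%) and CRY2 (57%) are richer in GC than the upper quartile of tested genes (55.3%). NR1D1 (ENSG00000126368.5, chr17:40092787-40100725), which encodes REV-ERB alpha, reached 12.2 CPM in normoxia siARNT B and 12.1 CPM in hypoxia siARNT C and stayed between 4.68 and 8.5 CPM in the other 10 libraries. CRY2 (ENSG00000121671.7, chr11:45847118-45883248) was likewise highest in these libraries, at 23.3 and 25 CPM against 14.3 to 20.1 CPM elsewhere. PER1 (ENSG00000179094.9, chr17:8140472-8156506), which responds early to external signals in many tissues, was 4.56 CPM in normoxia siARNT B and 3.53 CPM in hypoxia siARNT C, with 3.63 CPM in hypoxia siControl B and at most 2.89 CPM in the rest.

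Intervals of these genes were wide, for a reason that was not tested. NR1D1 differed with siARNT by 0.58 ± 0.297 in normoxia (interval -0.08 to 1.23) and by 0.59 ± 0.298 in hypoxia (interval -0.07 to 1.24). Without the 2 libraries the values were 0.17 and 0.34, and with the GC correction 0.18 and 0.51, the last called (edgeR adjusted p = 0.0051; range over the alternatives 0.00134 to 0.48). The PER1 value for siARNT in normoxia went from 0.39 ± 0.309 to 0.02 without the 2 libraries and to -0.17 with the GC correction. CRY2 went from 0.26 ± 0.163 to 0.05 and 0.02 in the same comparison. BHLHE41 (ENSG00000123095.5, chr12:26120026-26125127) is of middling GC content (49.6%) but low in counts, from 21 to 64 a library, and its siARNT difference in hypoxia was 0.38 ± 0.186 with an interval of -0.03 to 0.79 (0.41 without the 2 libraries), all 3 siARNT libraries (0.624, 0.609 and 0.584 CPM) being above siControl.

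**Figure D3:**
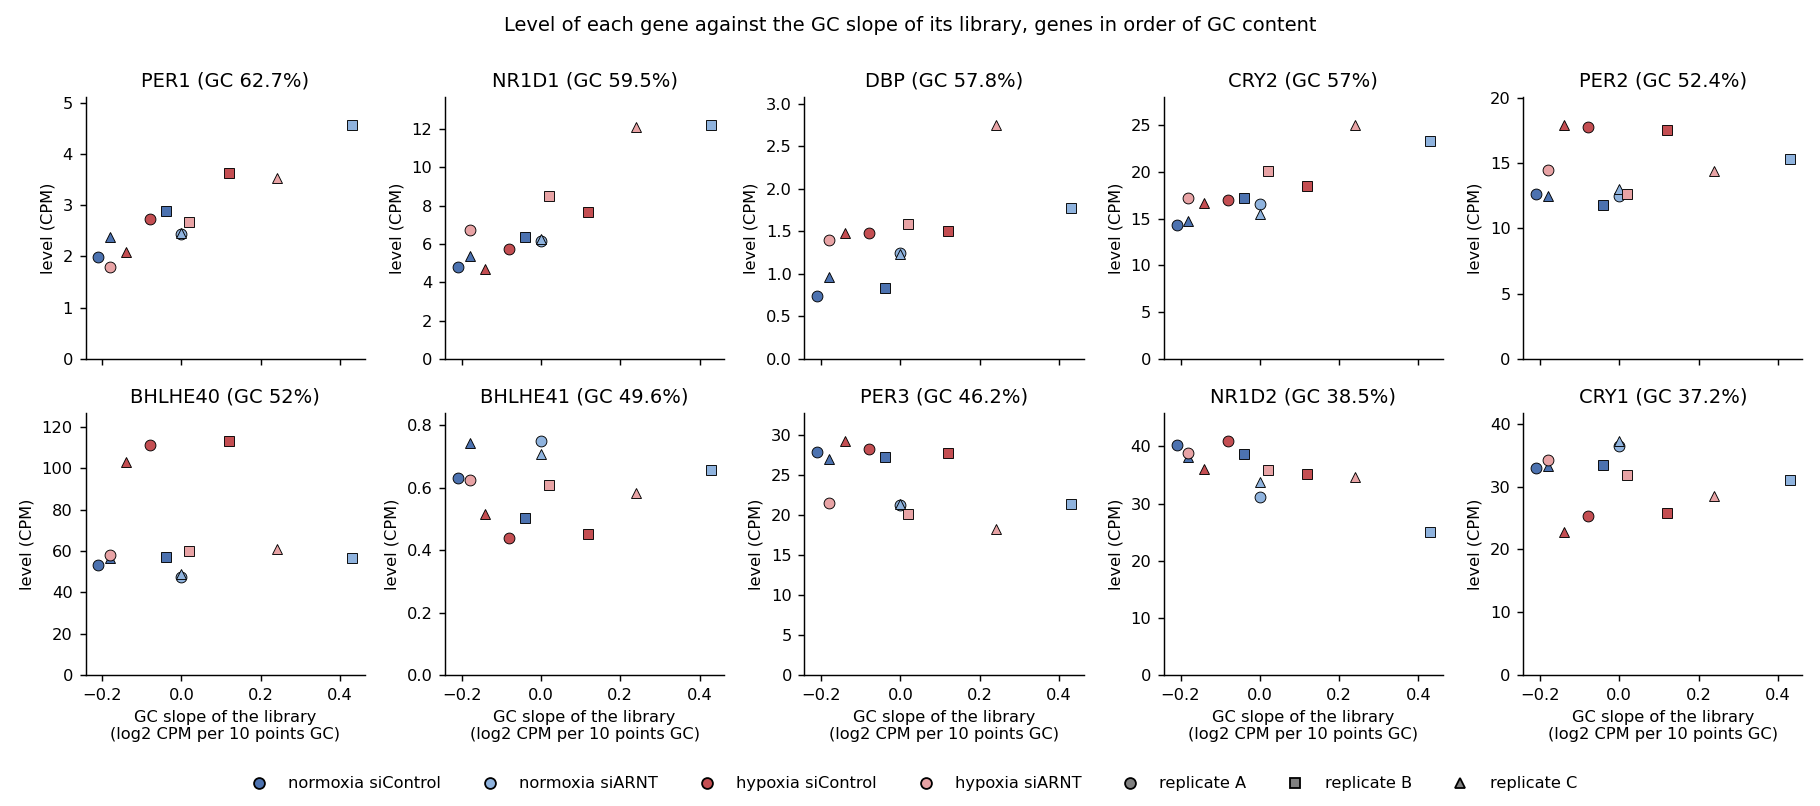
Level of each clock gene in CPM (linear axis from 0) against the GC slope of its library, the rise of log2 CPM per 10 percentage points of gene GC content; colours are groups and shapes replicates, with genes ordered from 62.7% to 37.2% GC. NR1D1 and CRY2 are highest in the libraries with slopes of 0.43 and 0.24, normoxia siARNT B and hypoxia siARNT C. For BHLHE40, PER2 and CRY1 the hypoxia siControl libraries lie apart from all others, and the remaining groups overlap.

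Across the 12 libraries, the genes whose log2 CPM followed BHLHE40 most closely among 9855 genes of at least 5 CPM on average were NDRG1, ALDOC and TP53INP2 (Pearson r = 0.99 each). Those nearest PER2 were CDCP1 (0.96), CCDC80 (0.96) and HK2 (0.94), and those nearest PER3 were DHRS9 (0.99), BZW1 (0.99) and CASP4 (0.98). CRY1 was followed by GLIPR1 (0.98), EIF4E (0.98) and SLC4A7 (0.97). Among the clock genes themselves, r was 0.88 between BHLHE40 and PER2 and -0.92 between BHLHE40 and CRY1. For NR1D1 and CRY2, both GC-rich, it was 0.94. These values describe 12 libraries in 4 groups, which share depth, base composition and treatment, and carry no test.

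The activating limb and related genes were read from a list of 11, of which 9 were tested. With hypoxia in siControl cells 5 rose and 3 fell, where 10.4% and 14.9% of all tested genes did, with a median log2 change of 0.27 against 0.02 over all tested genes. RORA (1.21), a nuclear receptor that activates BMAL1, NFIL3 (0.86), a repressor at D-boxes, TEF (0.53), a PAR bZIP activator, CIART (0.36), a clock repressor, and BMAL1 (0.27) rose, and HLF (-1.87), BMAL2 (-0.7) and NPAS2 (-0.26) fell. All 8 calls were also made without the 2 libraries of steep GC slope. Of 22 or 23 alternatives a gene, BMAL1 and CIART lost the call in 5, HLF and TEF in 4, NPAS2 in 2 and RORA in 1. HLF and RORA rested on few reads, 2 and 12 in their lowest libraries. CLOCK was called in none of the 5 comparisons. In siARNT cells, 1 of the 9 was called for hypoxia, where 4.09% of all tested genes were: NPAS2, which rose by 0.32, a call lost in 6 of 23 alternatives. BMAL1 averaged 24.6 CPM in normoxia siControl and 29.7 CPM in hypoxia siControl. Its means were 23.9 CPM in normoxia siARNT and 28.7 CPM in hypoxia siARNT, a rise of similar size that was not called.

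With siARNT in hypoxia 3 of the 9 activating and related genes rose (HLF 1.82, NPAS2 0.62 and BMAL2 0.33) and 4 fell (RORA -1.47, TEF -1.47, CIART -0.77 and NFIL3 -0.42), with a median of -0.05 against 0.02 over all genes. Over all tested genes 14.4% rose and 14.7% fell. The BMAL2 call was lost in 4 of 22 alternatives and the HLF call in 4 of 21. In normoxia 1 fell, TEF (-0.97), where 10.8% of all tested genes did. The interaction was called for 3 of the 9, NPAS2 (0.57), BMAL2 (0.52, lost in 13 of 22 alternatives) and CIART (-0.64, lost in 10 of 22), where 4.69% of all tested genes were called. Each of these calls was also made without the 2 libraries of steep GC slope. NPAS2, which can stand in for CLOCK, averaged 110 ± 3.9 CPM in normoxia siControl and 92.4 ± 3.91 CPM in hypoxia siControl, but 114 ± 7.77 CPM in normoxia siARNT and 142 ± 4.01 CPM in hypoxia siARNT (SD, n = 3).

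**Figure D4:**
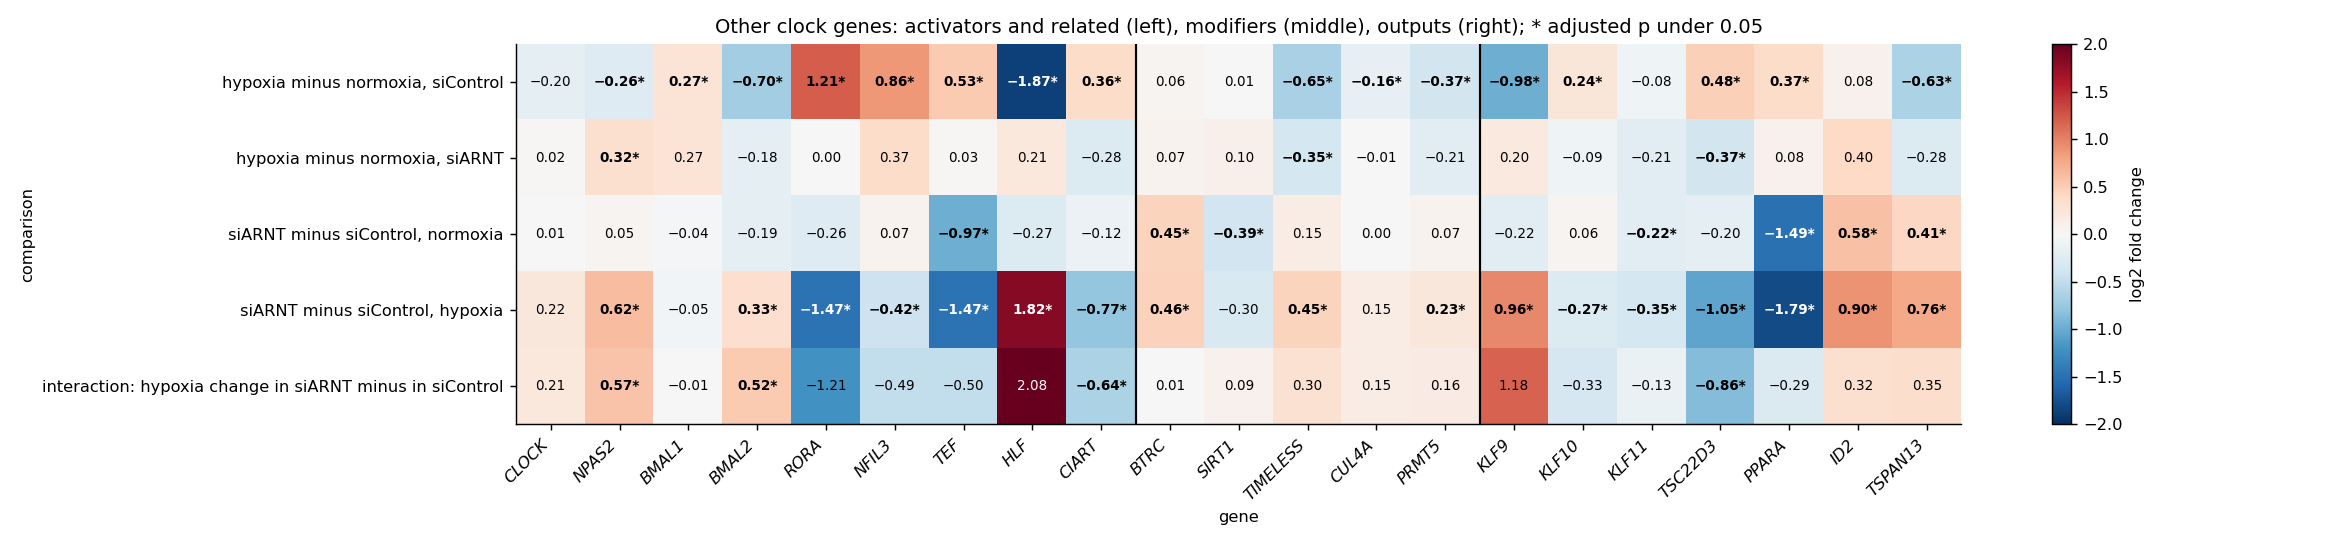
Log2 fold change of other clock genes (columns) in the 5 comparisons (rows), from blue (lower) to red (higher), with values printed and an asterisk for an adjusted p under 0.05. RORA, NFIL3, TEF and CIART rise with hypoxia in siControl cells and are lower with siARNT in hypoxia, and TEF and PPARA are lower with siARNT at both oxygen levels.

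Of 20 genes that modify clock proteins, 18 were tested. With hypoxia in siControl cells 3 fell, where 14.9% of all tested genes did, and none rose, where 10.4% did. Those that fell were TIMELESS (-0.65), the methyltransferase PRMT5 (-0.37) and the ubiquitin ligase scaffold CUL4A (-0.16). The CUL4A call was lost in 17 of 23 alternatives. The median was 0.01 against 0.02 over all tested genes. With siARNT in hypoxia 3 rose, BTRC (0.46), TIMELESS (0.45) and PRMT5 (0.23, lost in 1 of 22 alternatives), and 1 fell, where 14.4% and 14.7% of all tested genes did. BTRC, an F-box protein that targets PER proteins, was also higher with siARNT in normoxia (0.45), where SIRT1 was lower (-0.39, lost in 4 of 22 alternatives). The shares of all tested genes there were 9.42% up and 10.8% down. For hypoxia in siARNT cells TIMELESS fell (-0.35), a call lost without the 2 libraries and in 17 of 23 alternatives in all. No modifier was called in the interaction, where 4.69% of all tested genes were.

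Among 12 outputs outside the loop, 11 were tested. With hypoxia in siControl cells 3 rose, TSC22D3 (0.48), PPARA (0.37) and KLF10 (0.24), and 4 fell, among them KLF9 (-0.98) and TSPAN13 (-0.63), with a median of -0.04 against 0.02. Over all tested genes 10.4% rose and 14.9% fell. The KLF9 call was lost in 5 of 22 alternatives and that of KLF10 in 3 of 23. KLF9 rested on few reads, 7 in its lowest library. With siARNT in hypoxia 3 rose, KLF9 (0.96), ID2 (0.9) and TSPAN13 (0.76), and 4 fell, led by PPARA (-1.79), TSC22D3 (-1.05) and KLF11 (-0.35), where 14.4% and 14.7% of all tested genes did. Here the KLF9 call was lost in 7 of 21 alternatives. In normoxia siARNT cells PPARA (-1.49) and KLF11 (-0.22) were lower, and ID2 (0.58) and TSPAN13 (0.41) were higher, where 10.8% and 9.42% of all tested genes were. Of 22 alternatives, KLF11 lost this call in 7, ID2 in 2 and TSPAN13 in 1. For hypoxia in siARNT cells TSC22D3 fell (-0.37), a call lost in 5 of 23 alternatives. TSC22D3, the glucocorticoid-induced leucine zipper gene, was the 1 output called in the interaction (-0.86), where 4.69% of all tested genes were. The calls of outputs named here were also made without the 2 libraries of steep GC slope.

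Splicing was read from deposited junction counts as percent spliced in (PSI), the share of reads that carry the inclusion form. The files listed 15 events in these genes (6 in PER3, 6 in CRY1, 2 in NR1D2 and 1 in CRY2), of which 13 had reads enough to test. limma called none of the 13 in any comparison, with an adjusted p of at least 0.615 and none at an unadjusted p under 0.05, where 0.0533% of 46921 events were called for hypoxia in siControl cells, 0.0298% for hypoxia in siARNT cells, 0.0746% for siARNT in normoxia, 0.164% for siARNT in hypoxia and 0.0426% in the interaction. Unadjusted p under 0.05 was reached by 2326 to 3839 of all events in a comparison. The best covered PER3 event tested, a 116-base exon, was included at 97.7 ± 4.04, 95 ± 4.36, 93.7 ± 5.51 and 90 ± 5.57% (SD, n = 3) in siControl and siARNT cells in normoxia and in siControl and siARNT cells in hypoxia, in that order.

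For CRY1 the best covered event tested, a choice between acceptor sites that differ by 7 bases, had a PSI of 0 to 3.67% on average in the 4 groups. Donor sites of NR1D2 that differ by 109 bases had a PSI of 96.3 to 99.3%, and a 185-base exon of CRY2 was included at 93.3 to 98.7%. A second PER3 exon, of 49 bases, was singled out after its values were seen. Its PSI was 17, 19 and 18% in normoxia siControl, 12, 13 and 12% in normoxia siARNT, 17, 21 and 15% in hypoxia siControl and 10, 9 and 7% in hypoxia siARNT. All siARNT libraries were under all siControl libraries, on 1 to 9 inclusion reads a library. The log2 ratio of inclusion to exclusion differed with siARNT by -0.54 ± 0.389 in normoxia and by -0.84 ± 0.389 in hypoxia, and neither was called (limma adjusted p = 0.802 and 0.615).

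**Figure D5:**
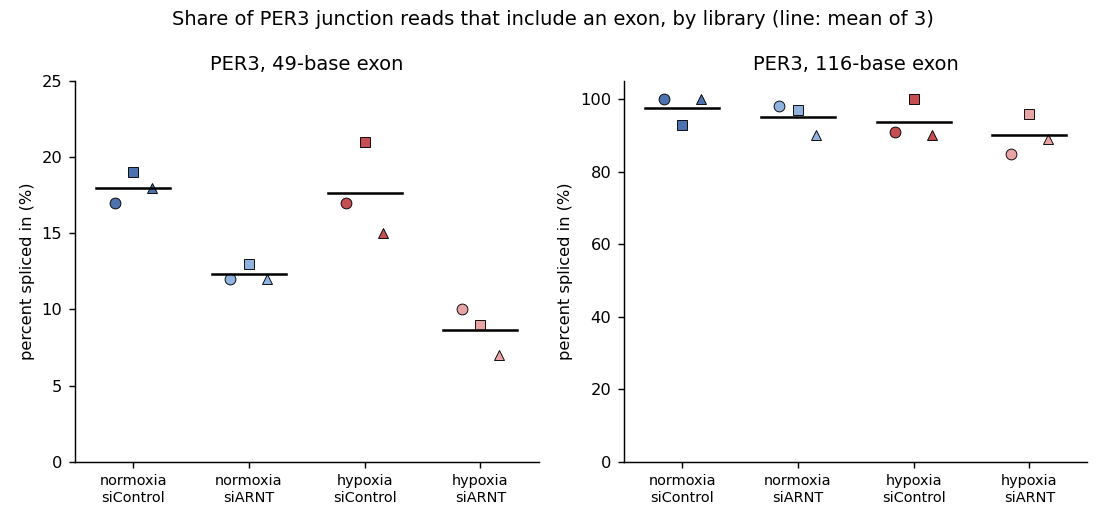
Percent spliced in of 2 PER3 exons in each library, with shapes for replicates and a line for the mean of 3; the axes start at 0 and differ in range. The 49-base exon lies at 7 to 13% in siARNT and 15 to 21% in siControl libraries, and the 116-base exon lies between 85 and 100% in all groups.

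The counts of some of these genes may hold reads of neighbours, because the strand setting used in counting is not given in the sources used here. Exons of DBP overlap those of SPHK2 on the opposite strand over 10.1% of their length, PER3 those of UTS2 over 10.7%, NR1D1 those of THRA over 9.5% and BHLHE41 those of SSPN over 4.1%. The share of their counts gained from or lost to these neighbours was not measured, so the levels of these 4 genes are uncertain, while the overlap of BHLHE40 with its antisense gene is 4 bases.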

How the data were processed

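Poly(A)-selected RNA of 12 AsPC-1 libraries was analysed as deposited. The submitters' processing notes name Trimmomatic, STAR 2.4.2a and GRCh38.p10, with no roles given. The authors' gene files hold counts, whole reads per gene ID, per the file headers and values. Lines that name no gene (22.71 to 25.2% of reads) were left out. The authors' event files hold junction counts, mean intron coverage (a signal) and, per the file headers, the PSI fraction; the fraction was recomputed from the reads within rounding in 100% of values. Event coordinates did not match GRCh38 and are not printed. Intervals cover the spread between libraries only. All pairs of replicates differed beyond sampling noise.

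The gene test was that of edgeR 4.0.16 in R 4.3.3: TMM, filterByExpr, robust quasi-likelihood fit of all 12 libraries with 1 mean per group, Benjamini-Hochberg over 16999 genes, threshold 0.05. Fold changes are log2, second group minus first. Events with a mean of at least 10 reads and 1 of each form were tested with limma 3.58.1 on log2 ratios with pseudocount 1. Both were run on simulated data without a GC slope of libraries, so that check does not cover the effect of such a slope. Gene names, positions, transcript lengths and GC come from GENCODE 29 (GRCh38); 51996 of 57820 IDs had a symbol, with 99.35% of counts. Alternatives were another scaling, filter, tool (DESeq2 1.42.0), sample set, replicate block, GC correction and leaving out each library, and, chosen after seeing the data, leaving out 2 libraries. The members and gene lists were chosen with earlier results of these data known. The text names all 10 members, at most 3 called genes of a list in each direction by size, and NPAS2, CLOCK, BMAL1, BMAL2, NFIL3 and CIART in any case; for splicing, the best covered tested event of each gene. Results of some listed genes are not reported here.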

Additional observations from a re-analysis of the deposited data

Results flagged for a closer look

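A test of the difference between the siRNAs in the response to hypoxia passed the threshold for 5 of the 48 genes tested among the 10 and the 3 lists, where 4.69% of all tested genes passed. The hypoxia change in siARNT cells minus that in siControl cells was -0.75 on the log2 scale for BHLHE40 (edgeR adjusted p = 0.00191), 0.57 for NPAS2 (edgeR adjusted p = 0.00399), 0.52 for BMAL2 (edgeR adjusted p = 0.0497), -0.64 for CIART (edgeR adjusted p = 0.0239) and -0.86 for TSC22D3 (edgeR adjusted p = 0.00057). The BMAL2 call was lost in 13 of 22 alternatives and the CIART call in 10 of 22, while those of BHLHE40, NPAS2 and TSC22D3 held in all alternatives run.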

How the results depend on the processing

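Of the 11 calls among the 10 clock genes, 8 held in all alternatives run and 3 (DBP, NR1D2 and PER2, above) lost significance in 11 of their fits; none turned. Of 51 calls among named genes of the lists, 26 held in all alternatives, 25 were lost in at least 1 and 0 turned. Counts over all genes moved more. Genes called for hypoxia in siControl cells (4299, 41.2% up) were 6723 with GC correction (53.5% up) and 7014 with GC correction and replicate block. For hypoxia in siARNT cells 696 genes (53.9% up) became 22 with only the 6 samples (68.2% up). With a block by siRNA and replicate letter, as if a letter marked a shared well, there were 136. GC correction gave 3259 (36.8% up), and GC correction with the replicate block by letter gave 3614. The split was 65.8% up with total count scaling and 71.9% up with a minimum of 1 CPM. Leaving out 1 library gave 129 to 707. For siARNT in normoxia 3431 (46.7% up) became 5265 (67% up) and 5739, and 1571 to 4148 without 1 library; for siARNT in hypoxia 4948 (49.6% up) became 7641 with GC correction and replicate block, and the split was 63.8% up with total count scaling. In the interaction 797 (53.2% up) became 1495 (75.3% up) with total count scaling and 373 with the block by siRNA and letter. GC correction gave 2654 (35.6% up) without and 2959 with the replicate block by letter. There were 1612 without the 2 libraries of steepest GC slope, and 272 to 1188 without 1 library. The split was 63.8% up with a minimum of 1 CPM and 41.5% up with no filter. The causes were not tested.

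The replicate block by letter changed no member call but DBP for siARNT in normoxia, and with it 15, 7, 22 and 37 splicing events were called, where the unblocked fit called 25 and 14 for hypoxia (siControl, then siARNT) and 35 and 77 for siARNT (normoxia, then hypoxia). Same-letter libraries correlated in their deviations from 0.06 to 0.28 for hypoxia in siControl and from 0.06 to 0.38 for siARNT in normoxia. The range was -0.4 to 0.49 for hypoxia in siARNT and -0.31 to 0.17 for siARNT in hypoxia. At most 2 of 3 letters matched best with their own. Normoxia siARNT B and hypoxia siARNT C, of steepest GC slope and unlike letters, correlated at 0.6. The correlations therefore cannot tell whether a letter marks a shared well, and letters were not taken as pairs. A pseudocount of 5 gave 66 events for siARNT in normoxia. Leaving out 1 library gave 17 to 43, 7 to 57, 23 to 72, 43 to 99 and, in the interaction (20), 24 to 53 events.

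Values that changed sign were all of results not called. They were NR1D2 for hypoxia in siControl (0.03 with GC correction, with and without the block); PER1 for siARNT in normoxia (-0.17, and -0.18 with the block, GC correction) and in hypoxia (0 with total count scaling, -0.34 to 0.14 without 1 library); NR1D2 for siARNT in hypoxia (0.05 with total count scaling, 0.02 with GC correction with and without the block, 0.01 without the 2 libraries, -0.1 to 0.04 without 1); the interaction of CRY2 (0 with DESeq2 size factors, DESeq2 and the replicate block, 0.06 with total count scaling, 0.02 with a minimum of 1 CPM, 0.18 with GC correction with and without the block, 0.06 without the 2 libraries, -0.16 to 0.21 without 1) and of NR1D1 (-0.01 with no filter, -0.25 to 0.42 without 1). Without 1 library, hypoxia values ran from -0.06 to 0.29 for NR1D1 in siControl and, in siARNT, from -0.5 to 0.12 for PER1, -0.03 to 0.12 for PER2 and -0.11 to 0.55 for NR1D1. Among events, log2 ratio differences turned for the 49-base PER3 exon (hypoxia in siControl -0.01 with pseudocount 0.5 and -0.14 to 0.11 without 1 library; hypoxia in siARNT 0.01 with pseudocount 5), the 116-base PER3 exon (interaction -0.12 to 1.15), the CRY1 event (-1.61 to 0.03, -0.12 to 1.86 and -1.18 to 0.66), the CRY2 exon (-0.11 and, in the interaction, -0.17 with pseudocount 5; -0.29 to 0.62, -0.07 to 0.52 and -0.4 to 0.52 without 1) and the NR1D2 event (-0.06 with pseudocount 5, 0.1 with 0.5; -0.46 to 0.66 and -0.71 to 0.41 without 1). BHLHE41 (21 to 64 counts a library) and DBP (38 to 113) had the fewest counts of the 10 genes.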
